A study of Mus musculus with 18 samples.

Results

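The 8 genes described here encode collagen chains that build or bind collagen fibrils, and they were taken by name from the deposited gene table: Col1a1, Col1a2, Col3a1, Col5a1, Col5a2, Col5a3, Col11a1 and Col12a1. They are 8 of the 30452 genes in that table, and 8 of 8 passed the filter on low values that left 11936 genes for testing. RNA was sequenced from MC3T3-E1 cells, an established mouse line of bone-forming precursor cells, after 5 days on 15 mm membrane discs in wells that had received 20000 cells each. The series design names nanofibre films of a piezoelectric material, meant to aid bone growth in defects. There were 6 groups of 3 libraries: PLLA/ZnO@Col with ultrasound (+US) and without it (-US), PLLA/ZnO +US and -US, and PLLA +US and -US. PLLA is the polyester poly-L-lactic acid, ZnO is zinc oxide, @Col marks the membrane with collagen, and +US stands for 10 min of ultrasound daily. All groups share the cell line, the culture time and the irradiated polyester base, and the ultrasound intensity and frequency were not given in the sources used here.

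Collagen chains wind around each other into a triple helix, which needs the small amino acid glycine at regular steps along the chain. Type I collagen, made of α1 chains (Col1a1) and fewer α2 chains (Col1a2), is the main protein of bone matrix. Types III (Col3a1), V (Col5a1, Col5a2, Col5a3) and XI (Col11a1) join it in mixed fibrils, and types V and XI are known for starting fibrils and limiting their width.

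The coding sequences (mouse GENCODE annotation M21 on GRCm38) show the feature that makes a chain fibrillar, and which of the 8 lacks it. The longest unbroken run of glycine triplets, counted as codons for glycine at every 3 codons, held 338 triplets in Col1a1, 339 in Col1a2, 344 in Col3a1, 338 in Col5a1, 339 in Col5a2, 337 in Col5a3 and 338 in Col11a1. In Col12a1 it held 32, and runs of at least 5 triplets covered 8.12% of its 3065 codons, against 58.8% to 77.2% in the other 7 genes. Col12a1 encodes the chain of collagen XII, a fibril-associated collagen that binds to the surface of type I fibrils, so it is a companion of the fibrillar chains and not one of them. The first 54 bases of the longest run are shown for 4 genes to make the repeat visible, 5′ to 3′ on the coding strand, with each glycine codon that opens a triplet in capitals.
Col1a1, codons 168 to 185 of 1453: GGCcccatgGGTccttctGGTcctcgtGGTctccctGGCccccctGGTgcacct
Col1a2, codons 97 to 114 of 1372: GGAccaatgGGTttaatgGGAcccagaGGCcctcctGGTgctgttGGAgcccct
Col11a1, codons 527 to 544 of 1804: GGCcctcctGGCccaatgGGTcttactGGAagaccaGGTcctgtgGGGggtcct
Col12a1, codons 2805 to 2822 of 3065: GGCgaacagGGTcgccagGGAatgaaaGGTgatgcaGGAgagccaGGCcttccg

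On GRCm38 Col1a1 lies on chromosome 11 (94936224 to 94953042), Col1a2 on chromosome 6 (4504814 to 4541544) and Col11a1 on chromosome 3 (114030540 to 114220718). Col3a1 (45311538 to 45349706, plus strand) and Col5a2 (45374321 to 45503282, minus strand) lie close together on chromosome 1. Col5a1 is on chromosome 2 (27886425 to 28039514), and Col5a3 (20770050 to 20815067) and Col12a1 (79598991 to 79718720) are far apart on chromosome 9. Other annotated genes overlap Col1a2, Col3a1, Col5a1, Col5a2 and Col12a1, and how strand was treated in counting was not given in the sources used here, so shared reads cannot be told apart. The overlapping genes reached at most 4.36 FPKM at Col3a1, 1.96 at Col5a1 and 1.69 at Col1a2.

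The promoter table (RefSeq, GRCm38.p6) held 5 of the 8 genes. The 250 bases before the RefSeq start are shown for Col1a2 and Col3a1, 2 of the genes that moved together across libraries. Their Pearson r was 0.892 in the 15 libraries described below and 0.711 in all 18. Col5a1 moved with Col1a2 as closely and is not shown. The Col1a2 window lies inside the gene span given above, which begins at 4504814, so it precedes a different start than that of the span. CCAAT, a motif known in the promoters of type I collagen genes, is in capitals. Searched on both strands, CCAAT was in 33.9% of the 32851 windows of this length in the table, TATAAA in 12.4% and GGGCGG, the core of a GC box, in 32.7%. The Col1a2 window held CCAAT once and GGGCGG in 2 places, with 62.0% G and C. The Col3a1 window held neither, but TATAAA once, with 35.2% G and C. A match describes letters and is not shown to be a site.
Col1a2, chr6:4505368-4505617, plus strand: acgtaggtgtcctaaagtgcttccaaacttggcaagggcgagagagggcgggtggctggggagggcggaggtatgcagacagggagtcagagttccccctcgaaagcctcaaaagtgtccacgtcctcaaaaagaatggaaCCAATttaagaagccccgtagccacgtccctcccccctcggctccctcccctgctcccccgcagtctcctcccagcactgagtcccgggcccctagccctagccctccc
Col3a1, chr1:45311288-45311537, plus strand: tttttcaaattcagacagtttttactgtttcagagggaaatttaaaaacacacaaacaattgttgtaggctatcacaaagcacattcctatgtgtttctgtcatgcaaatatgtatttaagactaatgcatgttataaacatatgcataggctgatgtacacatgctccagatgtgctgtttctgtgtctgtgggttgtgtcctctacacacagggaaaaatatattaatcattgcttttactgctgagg

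Type I collagen dominated. Levels below are FPKM, fragments scaled by the authors to transcript length and library size. Comparisons between genes rest on the lengths used, which are not stated here. Raw counts over the 18 libraries were similar, 212833 to 580619 for Col1a1 and 214259 to 573689 for Col1a2, with coding sequences of 4359 and 4116 bases. In PLLA/ZnO@Col +US replicate 1 Col1a2 had more counts than Col1a1 (551002 against 431244) but the lower FPKM. Over the 18 libraries the mean was 930.2 FPKM for Col1a1, which ranked 35 among the 11936 tested genes, and 476.5 for Col1a2, which ranked 78. The type V chains Col5a1 and Col5a2 followed at 91.5 and 85.3, then Col12a1 at 82.0, Col3a1 at 47.3, Col5a3 at 11.4 and Col11a1 at 1.44. Col1a1 made 47.3% to 57.8% of the summed FPKM of the 8 genes and Col1a2 24.1% to 35.9%. The 8 genes together took 1.14% to 2.27% of all gene counts (median 1.75%).

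The order by FPKM was firm at the top and the bottom, and loose in the middle. By FPKM, though not by raw counts, Col1a1 was above Col1a2 in 18 of 18 libraries. Col1a2 was above Col5a1, Col3a1 above Col5a3 and Col5a3 above Col11a1 in 18 of 18 as well. Col5a1 was above Col5a2 in 12 of 18 and Col5a2 above Col12a1 in only 7 of 18, so these 3 neighbours overlapped. Col12a1 was above Col3a1 in 15 of 18. Col11a1 and Col12a1 varied most, with coefficients of variation of 53.5% and 34.1% over the 18 libraries, against 24.0% for Col1a2 and a median of 21% over all tested genes. The other 5 chains varied by 12.9% to 17.4%.

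Depth was 48307580 to 78039543 gene counts per library, and no 2 libraries of a group agreed within sampling noise. Whether the replicates were separate cultures is not in the labels, so the p-values speak of the spread between the sequenced libraries, which may be technical. Of 7 osteoblast markers, Runx2, Spp1 and Dmp1 reached 1 FPKM, while Sp7, Alpl, Bglap and Ibsp stayed under 1 in every library. Among markers of other matrix-making cells, Sox9 was the only 1 of 6 chondrocyte markers in the table to reach 1 FPKM (Col2a1, Acan, Col9a1, Comp and Hapln1 did not), and Scx and Mkx did so among 3 tenocyte markers. Of 6 macrophage and osteoclast markers Cd68, Csf1r and Ctsk did and Ptprc, Adgre1 and Acp5 did not. None of the measured adipocyte, endothelial or epithelial markers did.

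The libraries were not alike in Y-linked reads (Ddx3y, Eif2s3y, Kdm5d and Uty, relative to depth). Taking the median of 11 libraries as 100%, PLLA/ZnO@Col +US replicate 1 had 2.68%, and replicates 1 and 3 of PLLA/ZnO@Col -US had 1.44% and 2.13%, and these 3 are said to stand apart. In these 3 libraries Thy1, a surface protein of mesenchymal cells, was at 0.116, 0.0709 and 0.128 FPKM, against 2.55 to 5.79 FPKM in the other 15. A further 4 libraries held partial Y-linked reads, all of them with ultrasound: PLLA/ZnO@Col +US replicates 2 and 3 at 35.8% and 40.3%, PLLA/ZnO +US replicate 3 at 16.5% and PLLA +US replicate 3 at 32.5%. The first 3 lie only on PLLA/ZnO@Col, so the values there are given with and without them. Without them only replicate 2 is left of PLLA/ZnO@Col -US, and the fit takes its spread from the other groups.

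In these 3 libraries the balance between chains was different. Col1a2 was at 747.0 FPKM in the +US one and at 620.8 and 622.6 FPKM in the -US ones, above every other library (266.1 to 579.2 FPKM). Col11a1, the α1 chain of the collagen XI of cartilage fibrils, was at 3.75, 2.78 and 2.03 FPKM there, again above the other 15, which lay between 0.52 and 1.63. Col12a1 was at 47.6, 44.4 and 20.6 FPKM there, below the 50.5 to 127 FPKM of the other 15. So 3 of the 8 genes did not overlap between the 3 libraries and the other 15, as did 7.65% of all tested genes. Col1a1 did not follow Col1a2: it was at 1107, 906.4 and 909.5 FPKM, within the 500.4 to 1165 FPKM of the other libraries. No test is given, because these libraries are not a group of the study.

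The ratio of Col1a1 to Col1a2 split the libraries in the same way. It was 1.48 in the +US library and 1.46 in both -US libraries that stood apart, against 1.88 to 2.33 (median 2.13) in the other 15 libraries. The ratio of Col11a1 to Col5a1, the abundant chain of collagen V, lay between 0.0299 and 0.0401 in the 3, against 0.00496 to 0.0167 in the 15. The ratio of Col12a1 to Col1a1 lay between 0.0227 and 0.0490, against 0.0567 to 0.197, and that of Col5a1 to Col1a1 between 0.0747 and 0.0846, against 0.0888 to 0.142. The ratios of Col3a1 to Col1a1 and of Col5a1 to Col5a2 overlapped between the 3 libraries and the 15.

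**Figure D1:**
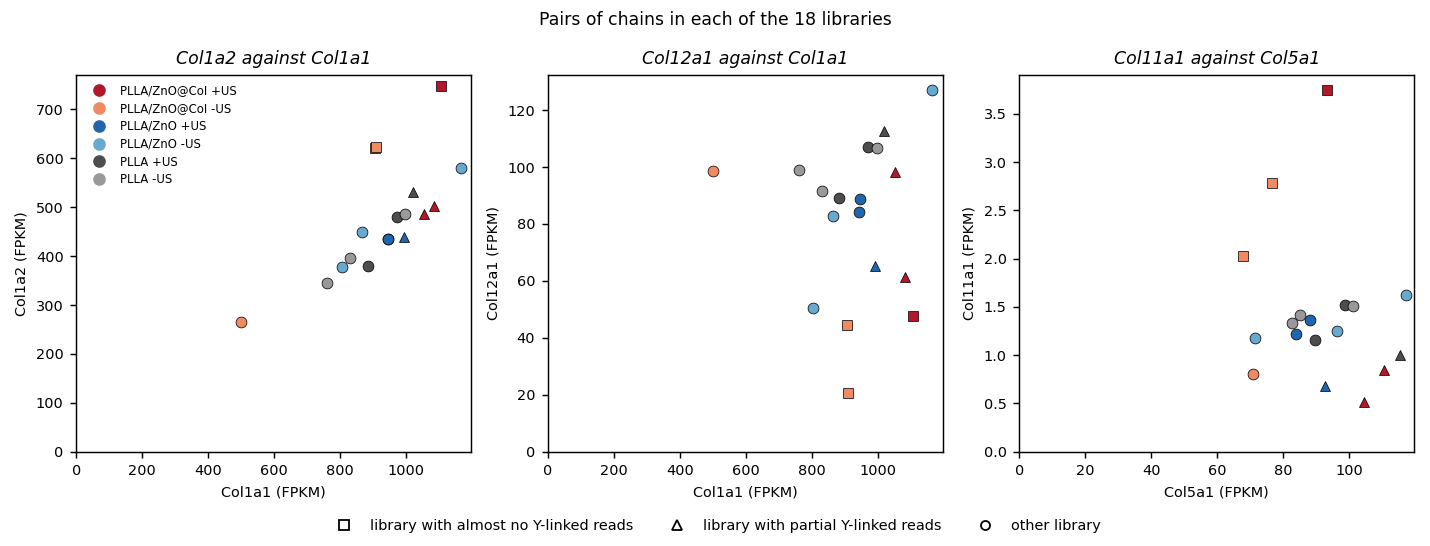
Levels of 3 pairs of chains in each of the 18 libraries, in FPKM on both axes, coloured by group. Squares are the 3 libraries with almost no Y-linked reads, triangles the 4 with partial Y-linked reads, circles the others. Col1a2 rises with Col1a1 along 1 line in 15 libraries and the squares lie above it; the squares are also lowest for Col12a1 and highest for Col11a1.

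Among the other 15 libraries the type I chains moved together. On the log2(FPKM + 1) scale Col1a1 and Col1a2 had a Pearson r of 0.951 and a Spearman rho of 0.939, and r was 0.896 without the 2 libraries farthest from the median of Col1a1. Col1a2 with Col3a1 had an r of 0.892 and a rho of 0.889 (0.876 without the 2 farthest). Col3a1 with Col5a1 had an r of 0.898 and a rho of 0.868 (0.843 without them). Col1a2 with Col5a1 had an r of 0.893 and the highest rho of the 28 pairs of chains, 0.968 (0.857 without them). The permutation p was two-sided over 100000 draws and Benjamini-Hochberg adjusted over the 28 pairs. It was 7e-05 for r in each of the pairs named so far and at most 0.00028 for rho. Before adjustment it was 1e-05 for each r, the smallest that these draws can give. The points share library, depth and treatment group, so these values describe libraries and not treatments. Col12a1 and Col1a1 had an r of 0.08 and a rho of 0.25 (adjusted permutation p = 0.826 and 0.44), and r was 0.45 without the 2 libraries farthest out.

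Likeness was ranked over the tested genes and 18 libraries, with clone and predicted gene names and pseudogenes left out. Sparc, which encodes the collagen-binding matrix protein osteonectin, was the gene most like Col1a1 (r = 0.93 on the same scale, 0.94 over the 15 libraries), followed by Cd248 (0.92) and Adra1d (0.89). Col8a2, another collagen chain, was the most like Col1a2 (0.95), then Fzd2 (0.94) and Pdzd4 (0.93). For Col3a1 it was Lamb2 (0.91), a laminin chain. The type V chains were most like Fbxo25 for Col5a1 (0.92), App for Col5a2 (0.92) and Acvr1b for Col5a3 (0.87). Col11a1 was most like Sesn1 (0.93), and Col12a1 like Naip2 (0.96) and Il6st (0.96), the receptor subunit gp130. These coefficients are the highest among the genes ranked and a description only.

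**Figure D2:**
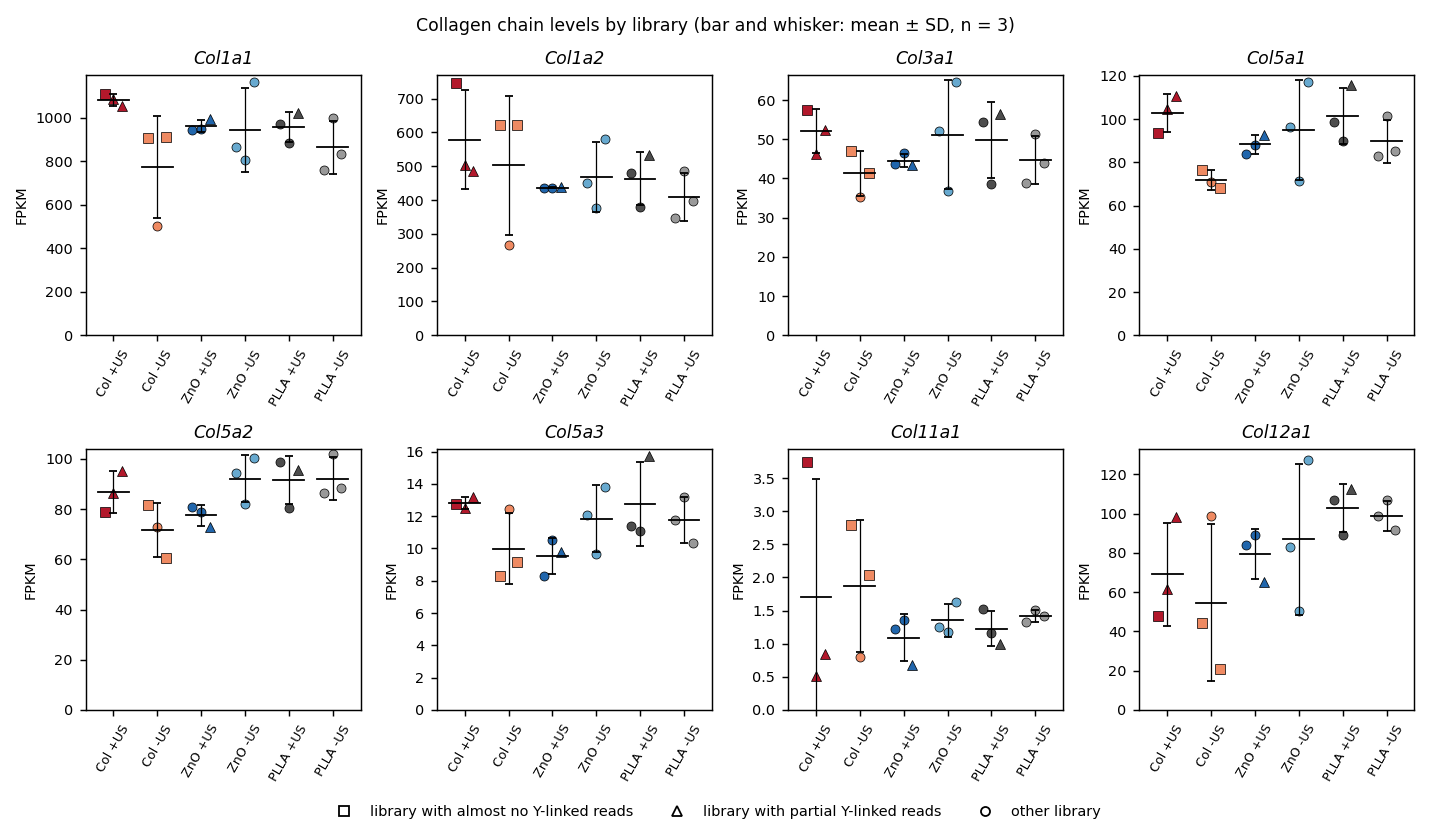
Level of each gene in FPKM in every library (linear axes from 0), with the mean and SD of 3 libraries per group; Col and ZnO stand for PLLA/ZnO@Col and PLLA/ZnO. Squares are the 3 libraries with almost no Y-linked reads and triangles the 4 with partial ones; the lower whisker of Col11a1 in PLLA/ZnO@Col +US passes below 0 and ends at the axis. Col1a1 lies between 1053 and 1107 FPKM in PLLA/ZnO@Col +US and between 500.4 and 909.5 in PLLA/ZnO@Col -US, and Col11a1 and Col12a1 spread most on that membrane.

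On PLLA/ZnO@Col 7 of the 8 genes were higher on average with ultrasound than without it, and none passed the test. Col1a1 had 1107, 1085 and 1053 FPKM in the +US libraries, against 906.4, 500.4 and 909.5 FPKM in the -US libraries. The 2 groups did not overlap, and the low point was -US replicate 2, the library of that group that did not stand apart. In that library 4.54% of counts were mitochondrial, the highest share of the 18 libraries, against 1.58% to 2.27% in the other 5 of PLLA/ZnO@Col and 1.57% to 4.23% in the 12 without collagen. Spp1, the osteoblast marker osteopontin, was at 3609 FPKM in it, against 658.0 and 731.3 in the other -US libraries there. The part of either in the Col1a1 difference was not tested. The log2 fold change of Col1a1 was 0.48 (SE 0.22, a fold of 1.39 with a 95% interval of 1.04 to 1.87, unadjusted p = 0.0436).

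Col5a1, the chain that most collagen V trimers contain, had 93.4, 104.7 and 110.6 FPKM with ultrasound, against 76.7, 70.8 and 68.0 FPKM without it. Its groups did not overlap, and its log2 fold change of 0.52 (SE 0.16, a fold of 1.43, interval 1.15 to 1.78, unadjusted p = 0.00562) was the largest of the 8. Col5a3, the chain of a rarer collagen V form, had 12.7, 12.5 and 13.2 FPKM with ultrasound, against 8.29, 12.5 and 9.16 FPKM without it. The lowest value with ultrasound and the highest without it round to the same number, so the groups barely missed each other, and the log2 fold change was 0.37 (SE 0.17, unadjusted p = 0.0435).

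The 2 groups did not overlap for 3 of the 8 genes, all higher with ultrasound, and for 11% of all tested genes in either direction. The adjusted p of all 8 was 0.525 or more by edgeR's quasi-likelihood F-test with Benjamini-Hochberg adjustment over the 11936 genes, of which 0% passed 0.05. Unadjusted, 3 of the 8 and 8.18% of all genes had a p under 0.05. The median log2 fold change was 0.35 over the 8 and -0.03 over all tested genes. DESeq2 called 3 genes and limma on log2(FPKM + 1) called 0 in this comparison, none of them among the 8. In a bulk sample, fewer cells with a transcript and less of it per cell cannot be told apart.

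Col3a1 had 57.4, 46.3 and 52.4 FPKM on PLLA/ZnO@Col with ultrasound, against 47.0, 35.4 and 41.4 without it, and the groups overlapped. Col5a2, the partner of Col5a1 in the main collagen V trimer, had 78.9, 86.3 and 95.3 FPKM with ultrasound, against 81.8, 72.8 and 60.6 without it. Col1a2 and Col11a1 overlapped widely, and their highest +US value was that of replicate 1, one of the libraries that stood apart. Col12a1 had 47.6, 61.5 and 98.1 FPKM with ultrasound, against 44.4, 98.6 and 20.6 without it, and the groups overlapped throughout.

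Without the 3 libraries that stood apart, the comparison sets +US replicates 2 and 3 against -US replicate 2 alone. Col1a1 then had a log2 fold change of 1.14 (SE 0.23, adjusted p = 0.0494 by edgeR) and was called among 111 genes, 0.93% of those tested. Col5a1 had 0.65 (SE 0.25, adjusted p = 0.0903) and Col1a2 0.94 (SE 0.27, adjusted p = 0.0663), where its value with all libraries was 0.19. Col5a3 had 0.09 (SE 0.25), and Col12a1 -0.26 (SE 0.41) in place of 0.36. Without -US replicate 2, the other way round, Col1a1 had 0.20 (SE 0.16, adjusted p = 0.635), Col1a2 -0.15, Col5a1 0.46 and Col5a3 0.50, and Col12a1 had 1.03 (SE 0.39, a fold of 2.05, adjusted p = 0.35). The size of the Col1a1 difference depended on that 1 library. Without the 4 libraries with partial Y-linked reads only replicate 1 is left of +US, and Col1a1 had 0.53 (SE 0.35) and Col5a1 0.40 (SE 0.25), both with an adjusted p of 0.999.

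On PLLA/ZnO 7 of the 8 genes were on average lower with ultrasound, and the changes were small. Col5a3 had 8.29, 10.5 and 9.77 FPKM with ultrasound, against 12.1, 9.65 and 13.8 without it, and the groups overlapped through -US replicate 2. Its log2 fold change of -0.32 (SE 0.17, unadjusted p = 0.0798) was the largest of the 8. Col5a2 had 80.9, 78.8 and 72.9 FPKM with ultrasound, against 94.3, 81.9 and 100.3 without it, the only 1 of the 8 genes whose groups did not overlap, as was so for 11.4% of all tested genes in either direction. Col1a1 was nearly level, at 944.3, 946.5 and 992.7 FPKM with ultrasound, against 865.7, 804.2 and 1165 without it (log2 fold change 0.02, SE 0.22). The smallest adjusted p of the 8 was 0.937 (edgeR), with 0 of all genes called and 3.24% at an unadjusted p under 0.05, which 0 of the 8 reached; DESeq2 called 5 genes, none of the 8.

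On plain PLLA the 2 groups overlapped for all 8 genes, where 10.8% of all tested genes did not overlap. Col1a1 had 971.7, 883.6 and 1019 FPKM with ultrasound, against 761.3, 997.8 and 830.6 without it. Col11a1 had the largest log2 fold change, -0.23 (SE 0.58, unadjusted p = 0.689), at 1.52, 1.16 and 1.0 FPKM with ultrasound, against 1.33, 1.51 and 1.42 without it. By edgeR the adjusted p was 0.978 or more for the 8, 0 genes were called and 0.436% had an unadjusted p under 0.05, while DESeq2 and limma called 0 as well.

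**Figure D3:**
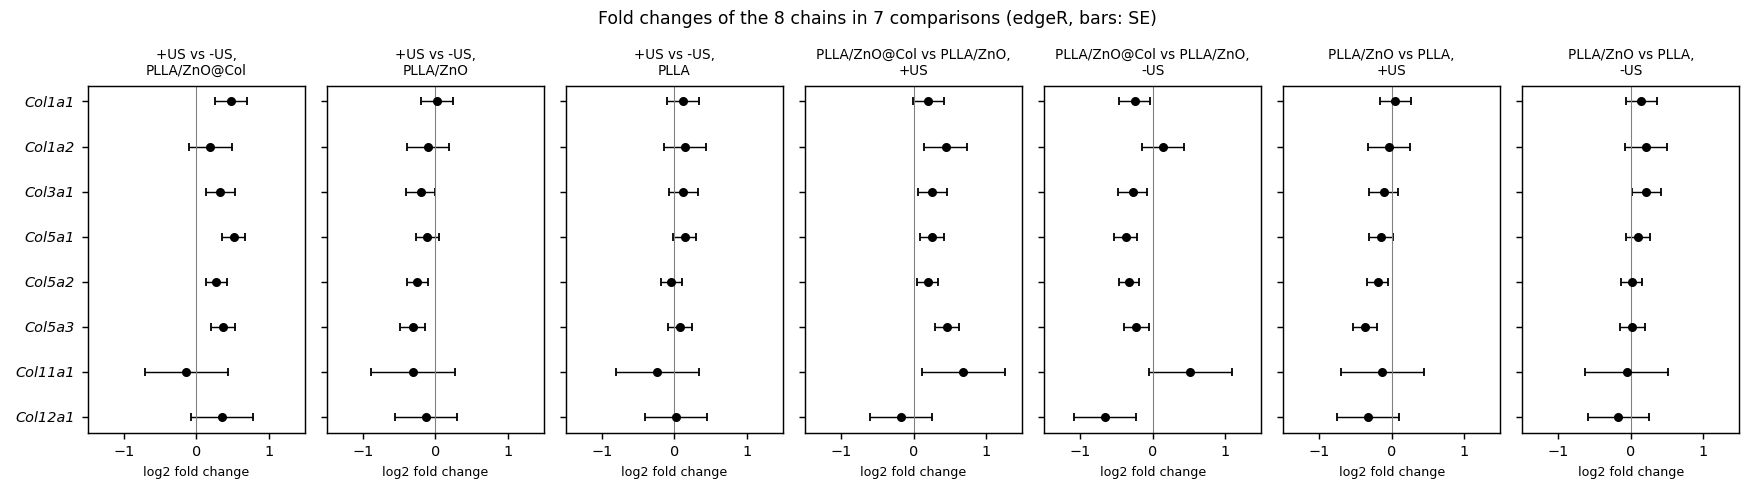
Log2 fold changes of the 8 genes with their SE (edgeR, 18 libraries) in the 7 comparisons between groups; each panel title gives the group on top of the fold first. The points are mostly right of 0 for ultrasound on PLLA/ZnO@Col and for collagen with ultrasound, mostly left of 0 for collagen without ultrasound, and the SE of Col11a1 and Col12a1 are the widest.

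Averaged over the 3 membranes, the ultrasound effect lay between -0.23 for Col11a1 (SE 0.33) and 0.21 for Col1a1 (SE 0.13), with a smallest adjusted p of 0.363 and 0% of genes called. Unadjusted, 0 of the 8 and 12.1% of all genes had a p under 0.05. Without the 3 libraries that stood apart Col1a1 was called (log2 fold change 0.44, SE 0.10, adjusted p = 0.0409 by edgeR), as were 1044 genes, 8.75% of all, with 1 PLLA/ZnO@Col -US library left. Leaving out the 4 libraries with partial Y-linked reads took Col1a1 to 0.21 (SE 0.18) with 0 genes called.

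The difference in the ultrasound effect between PLLA/ZnO@Col and PLLA/ZnO was above 0 for 8 of 8 genes, with a median of 0.51 against -0.05 over all tested genes. Col3a1 had 0.54 (SE 0.28, unadjusted p = 0.0785 by edgeR), the third largest value. An unadjusted p under 0.05 was reached by the 3 chains of collagen V. These were Col5a3 with 0.69 (SE 0.24, unadjusted p = 0.0112), Col5a1 with 0.63 (SE 0.23, unadjusted p = 0.0143) and Col5a2 with 0.52 (SE 0.20, unadjusted p = 0.0207). Without the libraries that stood apart the values were 0.39 (SE 0.30), 0.74 (SE 0.30) and 0.60 (SE 0.21) for the same genes, Col1a1 had 1.10 (SE 0.27, adjusted p = 0.19) in place of 0.46, Col1a2 1.02 (SE 0.32, adjusted p = 0.265) in place of 0.30, and Col12a1 turned to -0.14. Without PLLA/ZnO@Col -US replicate 2 Col1a1 had 0.18, Col1a2 -0.044 and Col11a1 -0.22. With all libraries the adjusted p was 0.999 for each of the 8 by edgeR, and 0% of all genes were called. Unadjusted, 3 of the 8 and 2.2% of all genes had a p under 0.05. The difference between PLLA/ZnO and PLLA was below 0 for 8 of 8, from -0.39 for Col5a3 (SE 0.24) to -0.07 for Col11a1, with an adjusted p of 1 for each, 0 genes called and 0.385% at an unadjusted p under 0.05. The 2 differences share the PLLA/ZnO libraries, so their signs are not independent.

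With ultrasound, the membrane with collagen carried more of the type I and V transcripts than PLLA/ZnO on average, and none passed the test. Groups did not overlap, and were higher on PLLA/ZnO@Col, for 4 of the 8 genes, Col1a1, Col1a2, Col5a1 and Col5a3, against 15.3% of all tested genes without overlap in either direction. Col1a1 had 1107, 1085 and 1053 FPKM on PLLA/ZnO@Col, against 944.3, 946.5 and 992.7 on PLLA/ZnO. Col1a2 had 747.0, 502.1 and 486.8 FPKM on PLLA/ZnO@Col, against 435.7, 435.8 and 438.7 on PLLA/ZnO, its tightest group of all, and its log2 fold change of 0.44 (SE 0.29) was 0.18 (SE 0.19) without the libraries that stood apart. Col5a1 had 93.4, 104.7 and 110.6 FPKM on PLLA/ZnO@Col, against 84.0, 88.3 and 92.7 on PLLA/ZnO. Without +US replicate 1 of PLLA/ZnO@Col these 3 genes still did not overlap. Col5a3 had 12.7, 12.5 and 13.2 FPKM on PLLA/ZnO@Col, against 8.29, 10.5 and 9.77 on PLLA/ZnO. Its log2 fold change was 0.46 (SE 0.17, a fold of 1.38, interval 1.10 to 1.73, unadjusted p = 0.0147 by edgeR), and 0.43 without the libraries that stood apart.

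Col11a1 had the largest log2 fold change of that comparison, 0.69 (SE 0.58), at 3.75, 0.52 and 0.85 FPKM on PLLA/ZnO@Col, against 1.22, 1.36 and 0.69 on PLLA/ZnO. Only the first of these libraries, which stood apart, was above the PLLA/ZnO group. Without the 3 libraries that stood apart the value turned to -0.66 (SE 0.30, adjusted p = 0.378 by edgeR). By edgeR the smallest adjusted p of the 8 was 0.436 and 0% of genes were called, with 1 of the 8 and 9.43% of all genes at an unadjusted p under 0.05. DESeq2 called 47 genes, none of the 8.

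Without ultrasound 6 of the 8 genes were on average lower on the collagen membrane. Col12a1 had 44.4, 98.6 and 20.6 FPKM on PLLA/ZnO@Col, against 82.9, 50.5 and 127 on PLLA/ZnO, and its log2 fold change of -0.66 (SE 0.43, unadjusted p = 0.144) was the largest. The 2 low values belong to the libraries that stood apart, and the third lies inside the PLLA/ZnO range. Without the libraries that stood apart its value was 0.15 (SE 0.39), and without PLLA/ZnO@Col -US replicate 2, which leaves only those that stood apart, it was -1.36 (SE 0.39, adjusted p = 0.0456 by edgeR), when 8.7% of all genes were called.

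Col5a1 had 76.7, 70.8 and 68.0 FPKM on PLLA/ZnO@Col -US, against 96.4, 71.4 and 117.4 on PLLA/ZnO -US, overlapping through PLLA/ZnO replicate 2. Its log2 fold change was -0.37 (SE 0.16, unadjusted p = 0.0348), and -0.46 (SE 0.24) without the libraries that stood apart. Col5a2 had 81.8, 72.8 and 60.6 FPKM on PLLA/ZnO@Col -US, against 94.3, 81.9 and 100.3 on PLLA/ZnO -US. It was the only 1 of the 8 whose groups did not overlap, though 81.8 and 81.9 FPKM lie side by side. Over all tested genes 11.4% did not overlap in either direction. Col5a2 was lower on the collagen membrane, with a log2 fold change of -0.33 (SE 0.14, unadjusted p = 0.0376) and of -0.37 (SE 0.16) without those libraries. Without those libraries Col1a1 had -0.95 (SE 0.22, adjusted p = 0.0574) in place of -0.25, and 3 genes beside Col12a1 changed sign: Col1a2 had -0.84 (SE 0.26, adjusted p = 0.11) in place of 0.15, Col11a1 -0.77 (SE 0.39) in place of 0.52, and Col5a3 0.04 (SE 0.23) in place of -0.22. With all libraries the smallest adjusted p of the 8 by edgeR was 0.335 and 0% of genes were called, with 2 of the 8 and 12.9% of all genes at an unadjusted p under 0.05; DESeq2 called 407 genes, none of the 8. This comparison and that of ultrasound on PLLA/ZnO@Col share the PLLA/ZnO@Col -US libraries and their deviations.

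Zinc oxide came with small differences. With ultrasound, Col5a3 had 8.29, 10.5 and 9.77 FPKM on PLLA/ZnO, against 11.4, 11.1 and 15.7 on PLLA, and Col12a1 had 84.2, 88.9 and 65.2 FPKM on PLLA/ZnO, against 107.0, 89.1 and 112.7 on PLLA. They were the 2 of 8 genes whose groups did not overlap, both lower on PLLA/ZnO, and Col12a1 only by 88.9 against 89.1 FPKM; of all tested genes 7.93% did not overlap in either direction. Col5a3 had a log2 fold change of -0.37 (SE 0.17, unadjusted p = 0.0456), 1 of the 8 and one of 1.27% of all genes with an unadjusted p under 0.05, while its adjusted p was 1.0 by edgeR and 0% of genes were called. With the replicate number as a block it had -0.37 (SE 0.17, unadjusted p = 0.0546) over all groups and -0.37 (SE 0.12, unadjusted p = 0.0243, adjusted p = 0.519 by edgeR) in the 6 libraries compared, again with 0 genes called. Without ultrasound all 8 genes overlapped between PLLA/ZnO and PLLA, where 17.6% of all tested genes did not. Col3a1, the chain of the collagen III of soft tissues and early repair, had the largest value, 0.21 (SE 0.20, unadjusted p = 0.308), at 52.2, 36.8 and 64.5 FPKM on PLLA/ZnO, against 38.9, 51.2 and 44.0 on PLLA. There 0 genes were called by edgeR and 1.19% had an unadjusted p under 0.05. DESeq2 called 2 genes with ultrasound and 1 without, none of the 8.

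Ratios between chains remove what all chains of a library share. Of 18 exact two-sided permutation tests (6 ratios, each under ultrasound, collagen and zinc oxide, permuted within membrane or ultrasound state), 0 passed 0.05 after Benjamini-Hochberg adjustment. Collagen V chains came closest under ultrasound. The ratio of Col5a1 to Col5a2 was 1.18, 1.21 and 1.16 on PLLA/ZnO@Col +US, against 0.938, 0.973 and 1.12 on PLLA/ZnO@Col -US. It was 1.04, 1.12 and 1.27 on PLLA/ZnO +US, against 1.02, 0.872 and 1.17 on PLLA/ZnO -US, and 1.0, 1.12 and 1.21 on PLLA +US, against 0.959, 0.995 and 0.965 on PLLA -US. The mean ratio was 1.15-fold higher with ultrasound over the membranes and higher on 3 of 3 of them (log2 difference 0.20, exact permutation p = 0.00625, adjusted 0.0563). On PLLA/ZnO the groups overlapped.

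Whether that ratio passed 0.05 depended on single libraries, while its log2 difference stayed between 0.16 and 0.23 with each library left out in turn. The adjusted p was 0.0135 without PLLA/ZnO -US replicate 3 and 0.045 without PLLA +US replicate 1 or PLLA/ZnO@Col -US replicate 3, all by the exact permutation test. Without the 3 libraries that stood apart the log2 difference was 0.21 (adjusted 0.105), and without the 4 with partial Y-linked reads it was 0.15 (adjusted 0.338). Those 4 libraries all belong to +US, with a ratio of 1.21, 1.16, 1.27 and 1.21, the highest value of their group on PLLA/ZnO and on PLLA.

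The ratio of Col1a1 to Col1a2 was 1.48, 2.16 and 2.16 on PLLA/ZnO@Col +US, against 2.17, 2.17 and 2.26 on PLLA/ZnO +US, and 1.46, 1.88 and 1.46 on PLLA/ZnO@Col -US, against 1.93, 2.13 and 2.01 on PLLA/ZnO -US. It was 0.825-fold as high with collagen (log2 difference -0.28, exact permutation p = 0.005, adjusted 0.0563). The 3 low values are those of the libraries that stood apart, and without them the log2 difference was -0.07 (exact permutation p = 0.125, adjusted 0.205). The adjusted p was 0.045 without PLLA/ZnO@Col -US replicate 3 (log2 difference -0.25) and without PLLA +US replicate 1, which enters only the other tests of the adjustment.

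The ratio of Col12a1 to Col1a1 was 0.0891, 0.0940 and 0.0657 on PLLA/ZnO +US, against 0.110, 0.101 and 0.111 on PLLA +US, and 0.0957, 0.0628 and 0.109 on PLLA/ZnO -US, against 0.130, 0.107 and 0.110 on PLLA -US. It was 0.76-fold as high with zinc oxide (log2 difference -0.40, exact permutation p = 0.01, adjusted 0.06), with no overlap under ultrasound and overlap without it. No library that stood apart enters this comparison. Its adjusted p was 0.045 without PLLA/ZnO -US replicate 3, and 0.30 without the 4 libraries with partial Y-linked reads (log2 difference -0.31). The ratios of Col3a1 and Col5a1 to Col1a1 and of Col11a1 to Col5a1 had adjusted p-values from 0.247 to 0.995.

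**Figure D4:**
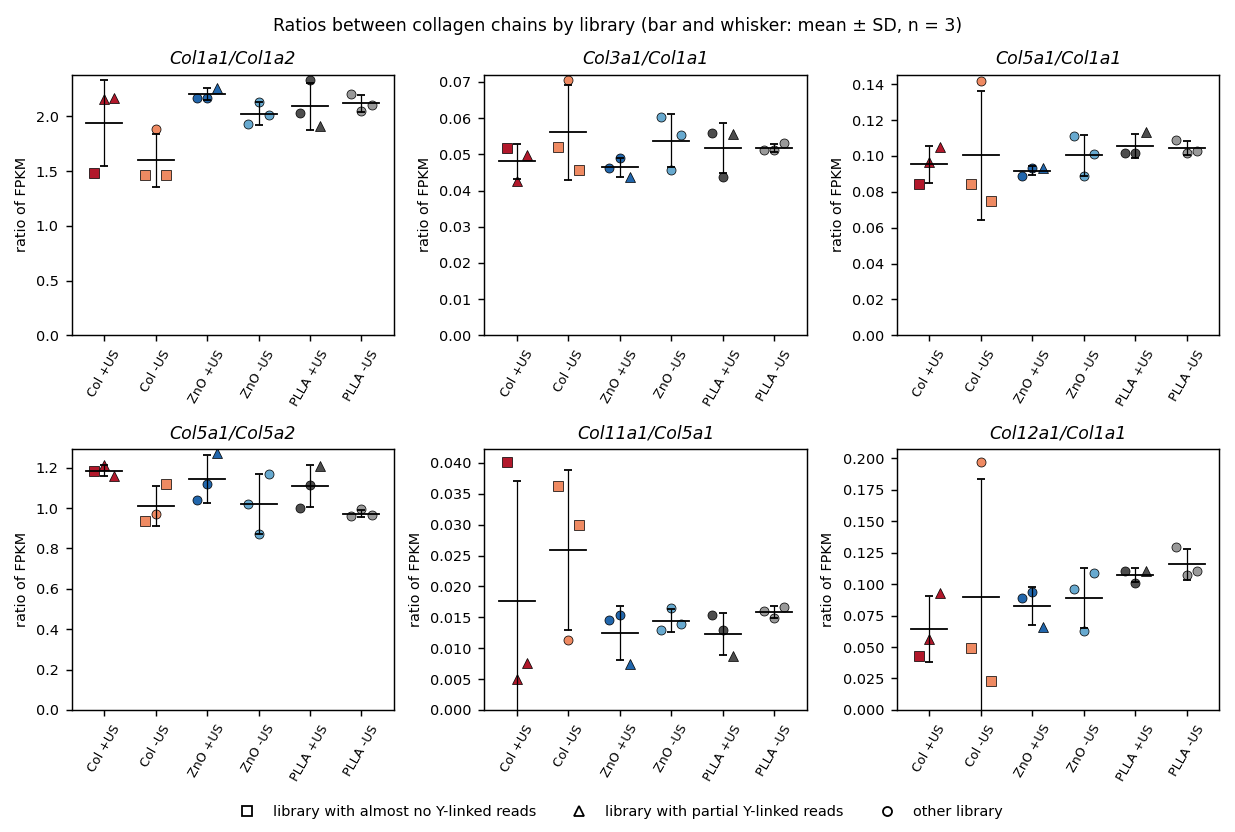
Ratios of FPKM between 6 pairs of chains in every library (linear axes from 0), with the mean and SD of 3 libraries per group; Col and ZnO stand for PLLA/ZnO@Col and PLLA/ZnO, and marks are as in the plot of levels. Whiskers that pass below 0 end at the axis. The squares, libraries with almost no Y-linked reads, are low for Col1a1/Col1a2 and Col12a1/Col1a1 and high for Col11a1/Col5a1.

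Genes of collagen maturation were also measured (27 genes, 23 tested), both enzymes that modify, cut and cross-link the chains and other proteins. By edgeR 0 of them were called in any comparison. For ultrasound on PLLA/ZnO@Col 18 of 23 were above 0, with a median log2 fold change of 0.19 against -0.03 over all genes. Adamts2, the protease that removes the N-terminal propeptide of procollagen, had 2.14, 5.47 and 6.11 FPKM with ultrasound, against 1.76, 2.62 and 1.56 without it (1.21, SE 0.32, adjusted p = 0.525). Its lowest values, 2.14, 1.76 and 1.56, were those of the 3 libraries that stood apart. The lysyl oxidase relatives Loxl4 (0.74, SE 0.26) and Loxl1 (0.38, SE 0.14) followed.

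For ultrasound on PLLA/ZnO the median of the 23 was 0.02. P4ha2, a prolyl 4-hydroxylase subunit that stabilises the triple helix, had 13.7, 15.6 and 19.4 FPKM with ultrasound, against 22.1, 24.9 and 34.8 without it (-0.75, SE 0.18, adjusted p = 0.937 by edgeR). The groups did not overlap. The lysyl hydroxylase genes Plod2 (-0.93, SE 0.37) and Plod1 (-0.37, SE 0.16) had the next smallest p. The reference group, PLLA/ZnO -US, had the highest group mean for P4ha2 (27.2 FPKM, others 16.2 to 19.3). The same was so for Plod1 (13.2 FPKM, others 9.79 to 11.6). Without ultrasound P4ha2 had 0.54 (SE 0.18) for zinc oxide and -0.54 (SE 0.18) for collagen, which share that group. On PLLA the median was 0.14 and no member had an unadjusted p under 0.05.

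Of the 13 other fibrillar and fibril-associated collagens, 2 passed the filter. Col16a1, a fibril-associated chain, had 21.4 to 33.0 FPKM outside PLLA/ZnO@Col, and 34.2, 27.5 and 31.5 FPKM on PLLA/ZnO@Col +US, against 23.4, 24.4 and 25.5 on PLLA/ZnO +US (log2 fold change 0.38, SE 0.16, adjusted p = 0.478 by edgeR). Col27a1, a fibrillar chain of developing cartilage, reached at most 1.56 FPKM, with 0.609, 1.10 and 0.336 FPKM on PLLA/ZnO@Col -US, against 1.40, 1.04 and 1.56 on PLLA/ZnO -US (-0.95, SE 0.36, adjusted p = 0.278). The low values 0.609 and 0.336 belong to libraries that stood apart, and 1.10 lies inside the PLLA/ZnO -US range. Col2a1, the main cartilage collagen, reached at most 0.90 FPKM.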

How the data were processed

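Polyadenylated RNA was sequenced on Illumina in 18 libraries, per the labels' protocols. Cutadapt 1.9, FastQC and genome build GRCm38 are named in the submitters' processing notes, whereas aligner, counter and strand setting were not given in the sources used here. Raw counts per gene (whole numbers) were deposited by the authors for each library. Beside them the authors deposited FPKM values, per the file headers, which scale to transcript length and library size.

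Members and gene lists were chosen with earlier results of these data known. Genes with an FPKM of at least 1 in at least 3 libraries were tested, 11936 of 30452. Counts were scaled by TMM, and the quasi-likelihood F-test of edgeR 4.0.16 in R 4.3.3 was run two-sided with 1 mean per group, 12 residual degrees of freedom and a common biological coefficient of variation of 0.28. Calls used a Benjamini-Hochberg adjusted p under 0.05 within a comparison, and 95% intervals are 1.96 SE on either side. Same-numbered PLLA/ZnO +US and PLLA +US libraries deviated together from their group means over the tested genes (r = 0.576, 0.636 and 0.788 for replicates 1, 2 and 3), a pairing that comes from the data and not from the labels; in no other comparison did all 3 pairs pass 0.1. Chain ratios were compared by exact permutation tests over libraries. Depth was 48307580 to 78039543 counts per library, so that precision depends on the spread between libraries more than on counting error. The script for edgeR was tested on simulated data.

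In each comparison a fold change, SE and p are given for members with an unadjusted p under 0.05 and for the member with the largest log2 fold change; other members were chosen for mention after their values were seen. Of the other gene lists (collagen maturation, other fibrillar and fibril-associated collagens, fibril-regulating matrix, collagen degradation) up to 3 genes per comparison with the smallest unadjusted p under 0.05 could be named, of which some are left out for length. Likeness names up to 3 genes per member by Pearson r, with clone and predicted gene names and pseudogenes left out. Alternatives were DESeq2 1.42.0, its size factors, limma 3.58.1 on log2(FPKM + 1) and log2(FPKM + 0.1), no filter and a filter at 5 FPKM, a replicate block, fits of only the groups compared, ratios of counts, each library left out, the 3 libraries that stood apart left out, and, chosen after seeing the data, the 4 with partial Y-linked reads left out and a replicate block in the 6 libraries of zinc oxide with ultrasound.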

Additional observations from a re-analysis of the deposited data

How the results depend on the processing

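Of 17 fold changes of chains, 18 chain ratios and 10 counts of chains called, each under up to 31 settings, 1125 values kept direction and side of the threshold or moved by less than the limit, 33 reversed, 8 passed the threshold where the reported value did not, and 3 counts moved. Without the 3 libraries that stood apart, reversals were seen for the collagen effect on Col11a1/Col5a1 (-0.64), Col12a1/Col1a1 (0.50) and Col5a1/Col1a1 (0.32), for Col11a1 under collagen with ultrasound (-0.66) and for Col12a1 under collagen without ultrasound (0.15), all log2. That setting also called 1 of the 8 chains, Col1a1 (1.14), for ultrasound on PLLA/ZnO@Col, and 1 for ultrasound averaged over membranes. Without the 4 libraries with partial Y-linked reads, an alternative chosen after seeing the data, Col11a1/Col5a1 under ultrasound (0.23), Col1a1/Col1a2 under zinc oxide (-0.035) and Col11a1 under averaged ultrasound (0.29) reversed. The causes were not tested.

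Leaving out each library in turn, log2 differences under collagen ranged from -0.13 to 0.63 for Col11a1/Col5a1, from -0.34 to -0.19 for Col1a1/Col1a2, from -0.044 to 0.11 for Col3a1/Col1a1, from -0.14 to 0.090 for Col5a1/Col1a1 and from -0.030 to 0.076 for Col5a1/Col5a2. Under ultrasound they ranged from -0.29 to 0.23 for Col12a1/Col1a1, from -0.10 to 0.050 for Col5a1/Col1a1 and from 0.16 to 0.23 for Col5a1/Col5a2. Under zinc oxide they ranged from -0.20 to 0.089 for Col11a1/Col5a1, from -0.48 to -0.28 for Col12a1/Col1a1, from -0.025 to 0.046 for Col1a1/Col1a2 and from -0.11 to 0.0041 for Col3a1/Col1a1. Fold changes ranged from -0.62 to 1.11 for Col11a1 under collagen with ultrasound and from -1.36 to -0.27 for Col12a1 under collagen without it, where the count of chains called ranged from 0 to 1.

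Outside zinc oxide with ultrasound the replicate numbers did not pair the libraries, and 9 of 18 libraries correlated best with their own number. Over the 7 comparisons deviations of same-numbered libraries correlated from -0.64 to 0.79. With the number as a replicate block, 0 of the 8 chains were called in each of the 10 comparisons, and Col1a1 for ultrasound on PLLA/ZnO@Col had 0.50. Counts of all genes called were 0 in every comparison by edgeR; by DESeq2 they were 407 and 47 for collagen without and with ultrasound, 5 and 3 for ultrasound on PLLA/ZnO and PLLA/ZnO@Col, 2 and 1 for zinc oxide with and without ultrasound, and 1 for averaged ultrasound. The main limits are 3 libraries per group and 1 remaining PLLA/ZnO@Col -US library in the fits without those that stood apart; Col11a1 is the only chain near 1 FPKM.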

Other observations

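Among genes that organise or break down collagen fibrils, by edgeR 0 of the 11 tested fibril-regulating and 0 of the 8 tested degradation genes were called in any comparison. Mmp13, a collagenase of bone and cartilage, had 0.121, 0.501 and 0.567 FPKM on PLLA/ZnO@Col +US, against 0.146, 16.0 and 0.220 on PLLA/ZnO@Col -US (log2 fold change -3.72, SE 1.21, adjusted p = 0.525). The difference lay in 1 library, -US replicate 2, which also had the lowest Col1a1 of the series. Dcn, the proteoglycan decorin that coats fibrils, had 12.2, 2.89 and 2.76 FPKM with ultrasound, against 10.2, 23.2 and 11.5 without it (-1.30, SE 0.47, adjusted p = 0.525), and its highest value was again in that library. The values 12.2, 10.2 and 11.5 are those of the libraries that stood apart. They lie above the groups without collagen, which reached at most 9.18 FPKM.

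Mmp14, a membrane-bound collagenase, had 79.3, 65.9 and 64.0 FPKM on PLLA/ZnO@Col +US, against 47.3, 49.0 and 55.5 on PLLA/ZnO +US (0.50, SE 0.13, adjusted p = 0.39 by edgeR). Without ultrasound it had 66.0, 66.6 and 63.7 FPKM on PLLA/ZnO@Col, against 51.7, 43.3 and 57.1 on PLLA/ZnO (0.40, SE 0.13, adjusted p = 0.194), so the groups did not overlap in either state. Mrc2, the endocytic receptor that takes up cleaved collagen, had 81.8, 79.1 and 73.8 FPKM on PLLA/ZnO@Col +US, against 51.1, 51.1 and 59.0 on PLLA/ZnO +US (0.58, SE 0.17, adjusted p = 0.415). Timp2, a tissue inhibitor of metalloproteinases, was also higher with collagen and without ultrasound (0.54, SE 0.14, adjusted p = 0.123 by edgeR). It had 364.8 to 442.7 FPKM on PLLA/ZnO@Col -US, against 248.0 to 309.7 on PLLA/ZnO -US. With ultrasound these 2 membranes overlapped for Timp2. Prelp, a leucine-rich proteoglycan that binds collagen, had 0.720, 5.24 and 0.847 FPKM on PLLA/ZnO@Col -US, against 10.8, 6.58 and 19.9 on PLLA/ZnO -US (-2.46, SE 0.69, adjusted p = 0.144), and was at 1.98 in PLLA/ZnO@Col +US replicate 1, so its 3 lowest values were those of the libraries that stood apart.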
